A study of Mus musculus with 2 samples.

Results

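Claudins are the membrane proteins that form the strands of tight junctions, and the 8 described here are Cldn11, Cldn14, Cldn9, Cldn3, Cldn12, Cldn8, Cldn10 and Cldn23. They were chosen by gene symbol from 35 claudin genes among 48816 features, and they held 93.6% of the claudin UMIs (unique molecular identifiers, which count captured RNA molecules) in the MethFix library and 95.01% in the RNAlater library. Single-nucleus RNA sequencing was performed on the stria vascularis, the epithelium of the cochlear lateral wall, of CBA/J mice at postnatal day 30. In MethFix, isolated nuclei were fixed in methanol, and in RNAlater, dissected tissue was kept overnight in that reagent before nuclei were isolated. The labels name tissue pooled from 5 to 6 animals for MethFix and from 10 for RNAlater, and each method gave 1 library, so no spread between animals could be measured. The methods of the study state fewer animals for RNAlater than the labels, so that pool size is uncertain.

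Claudin strands either seal the space between cells or form channels for selected ions through it, and the mixture of claudins in a cell sets which. In the stria, basal cells are joined by tight junctions that separate the tissue from the underlying spiral ligament, while marginal cells seal the surface that faces endolymph. Intermediate cells, which derive from melanocytes, lie between these layers. Spindle cells lie at the borders of the stria, and root cells lie next to it, outside the tissue.

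Of 4748 MethFix and 3868 RNAlater barcodes, 3323 were found in both matrices, which is 70.0% and 85.9% of each. After filtering, 3371 and 2310 nuclei remained, with a median of 3498 and 4698.5 UMIs, and 2257 barcodes were kept in both. Of the 2142 barcodes named in both, 2117 (98.8%) had the same class name. The libraries could not be treated as separate samples, a value seen in both was not counted as replicated, and the source of the shared barcodes was not tested. No p-value is given, and the 95% intervals cover counting error only.

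Nuclei were grouped by clustering without claudin genes and named by markers, so that each class name stands for nuclei that are like that cell type. Basal nuclei were named by Sox8, Nr2f2, Cacna1e and Fat2, and numbered 751 in MethFix and 591 in RNAlater. Marginal nuclei numbered 1091 and 671, and intermediate nuclei 849 and 522. Spindle-root clusters were required to reach a set summed level of Slc26a4, the anion exchanger pendrin, which did not exclude single nuclei without it, and were divided into 72 and 69 root and 97 and 52 spindle nuclei. The 4 basal markers summed to 2194 UMIs per 1000000 UMIs (CPM) in basal nuclei of MethFix and 2215 in RNAlater, against 27.5 and 25.3 in marginal nuclei. The basal class contained clusters of 214 and 182 nuclei led by Sorcs3 and Col27a1, in which the same markers summed to 1094 and 1172. Their basal marker scores were 4.02 and 4.21, with fibrocyte next at 3.34 and 2.97, where naming needed a margin of 0.6. Sorcs3 was also among the 10 leading genes of the fibrocyte clusters in both libraries. Levels of Cldn11 and Cldn14 in these basal clusters are given separately.

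All 8 genes were located in GENCODE M21 on build GRCm38. Cldn11 spans 31149920 to 31164324 on chromosome 3 (plus strand) in 3 exons. Cldn14 spans 93919031 to 94008837 on chromosome 16 (minus strand), with 6 annotated transcripts of 2 to 3 exons, and overlaps Gm49618 on the same strand. Cldn9 spans 23682584 to 23684026 on chromosome 17 (minus strand) and Cldn3 spans 134986214 to 134987472 on chromosome 5 (plus strand), each with 1 transcript of 1 exon. Cldn12 lies on chromosome 5 from 5489537 to 5514958, Cldn8 on chromosome 16 from 88560828 to 88563183 and Cldn23 on chromosome 8 from 35824712 to 35826559, all on the minus strand. Cldn10 lies on the plus strand of chromosome 14 from 118787908 to 118875489. Cldn3 overlaps Wbscr25 and Cldn10 overlaps n-R5s51 on the other strand, so values of Cldn14, Cldn3 and Cldn10 are less certain where reads could fall in either gene. RefSeq promoters (GRCm38.p6, 250 bases before to 50 after a start) matched 5 of the 8 genes. The start windows of the genes with the clearest class pattern are shown because they differ in base composition and in a nuclear receptor half-site, AGGTCA, marked in capitals on either strand together with AACAAT, a core that Sox factors can bind.
Cldn11, chr3:31149670-31149969, plus strand: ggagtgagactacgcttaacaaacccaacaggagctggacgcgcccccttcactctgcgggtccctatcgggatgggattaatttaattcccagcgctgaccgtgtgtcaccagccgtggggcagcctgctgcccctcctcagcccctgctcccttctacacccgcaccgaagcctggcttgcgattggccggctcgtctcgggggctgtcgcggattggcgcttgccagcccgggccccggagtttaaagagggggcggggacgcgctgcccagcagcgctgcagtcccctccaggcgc
Cldn14 upstream start, chr16:94008788-94009087, minus strand: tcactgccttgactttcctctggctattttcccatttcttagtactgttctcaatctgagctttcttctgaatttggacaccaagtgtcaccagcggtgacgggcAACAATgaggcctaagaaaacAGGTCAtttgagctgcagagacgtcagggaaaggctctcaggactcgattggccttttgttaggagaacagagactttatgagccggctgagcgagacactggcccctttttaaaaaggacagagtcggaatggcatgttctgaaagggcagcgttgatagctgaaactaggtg
Cldn14 downstream start, chr16:93929768-93930067, minus strand: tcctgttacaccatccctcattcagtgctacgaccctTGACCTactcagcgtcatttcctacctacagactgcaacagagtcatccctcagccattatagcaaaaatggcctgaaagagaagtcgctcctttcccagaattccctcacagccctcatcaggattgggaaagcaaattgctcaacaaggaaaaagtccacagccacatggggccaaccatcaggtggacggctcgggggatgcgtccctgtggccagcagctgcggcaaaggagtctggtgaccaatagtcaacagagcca
The Cldn11 window was 66.3% G and C and held neither motif. The Cldn14 windows shown were 48.0% and 52.7% G and C, and each held 1 AGGTCA match, as did the remaining Cldn14 window. The upstream window also held 1 AACAAT match. Of all 32851 promoters of this length, 16.3% held AGGTCA and 10.7% held AACAAT on either strand, and binding of any factor was not measured. The motifs were chosen with the class values known.

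**Figure D1:**
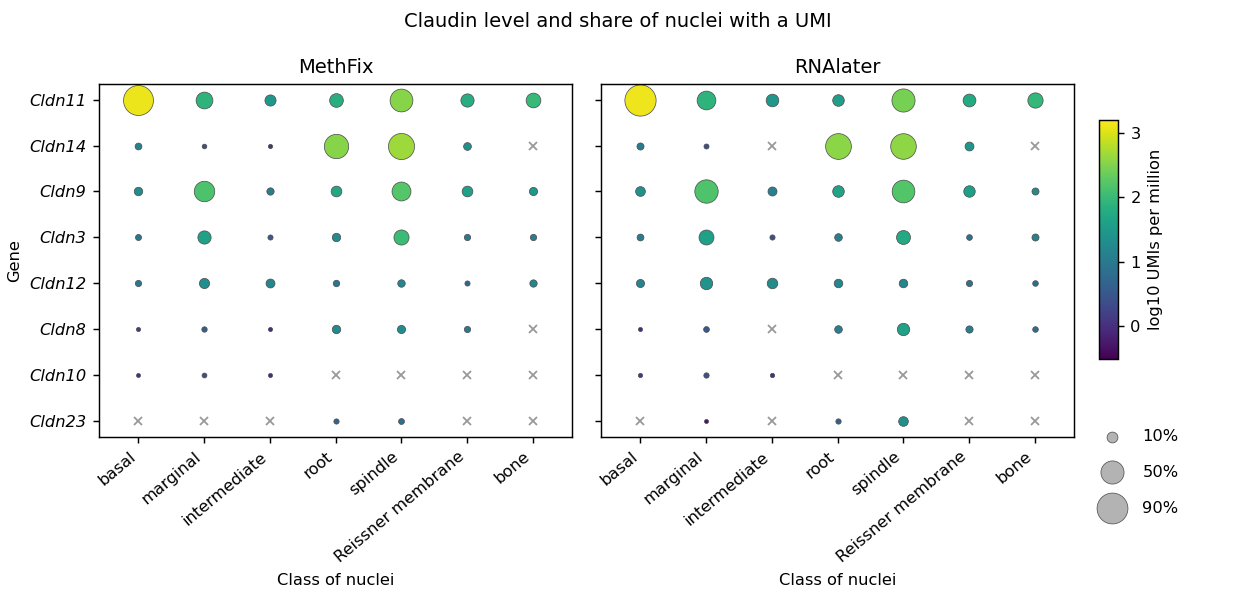
Colour gives CPM on a log10 scale and circle area gives the share of nuclei with a UMI, for 8 claudins (rows) in 7 classes (columns) of each library, with a cross where no UMI was counted. Cldn11 stood out in basal nuclei, Cldn14 in root and spindle nuclei, and Cldn9 in marginal and spindle nuclei.

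Cldn11, which seals the basal cell layer and is needed for the electrical potential of the cochlea, was highest in basal nuclei among all named classes. Its level was 1233 CPM (95% Poisson interval 1186 to 1282) in basal nuclei of MethFix and 1294 (1247 to 1343) in RNAlater. Over the other named classes it was 68.0 and 61.9, so the log2 ratios were 4.18 (4.05 to 4.31) and 4.39 (4.25 to 4.53). Cldn11 was the member called higher in basal nuclei by a 4-fold rule in both libraries, of 6 members with at least 20 UMIs, where 4.6% of 12743 genes were called. No member was called lower there, where 8.66% of genes were. By a 2-fold rule 4 members, Cldn14, Cldn9, Cldn8 and Cldn3, were lower, with Cldn8 at 3 and 2 UMIs in basal nuclei. The share of all genes lower by 2-fold is not given, so that count is not read as a result about claudins. The median log2 ratio of those 6 members was -1.30, against -0.21 over all genes tested. Of the claudin UMIs of basal nuclei, Cldn11 made up 95.2% in MethFix and 95.03% in RNAlater.

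A Cldn11 UMI was found in 84.7% of basal nuclei (81.9 to 87.2) in the MethFix library and 92.2% (89.8 to 94.2) in the RNAlater library, at median depths of 2487 and 3444 UMIs. When nuclei were thinned to 1000 UMIs, which left out shallower nuclei, the expected shares were 67.5% of 661 basal nuclei and 67.4% of 583. In intermediate nuclei the unthinned shares were 10.6% and 14.0% and the thinned shares were 2.93% of 813 nuclei and 2.89% of 522. Within the basal class, the Sorcs3 and Col27a1 clusters held 1092 and 1066 CPM of Cldn11, against 1275 and 1367 in the other basal clusters. The log2 differences were 0.22 (0.08 to 0.36) and 0.36 (0.22 to 0.49). When barcodes were instead gated singly by their own marker UMIs, 40 and 18 nuclei were called basal, and the basal ratio was 1.80 (1.33 to 2.26) in the MethFix library and 0.47 (-0.28 to 1.16) in the RNAlater library, an interval that includes 0. Of those nuclei, 34 of 40 and 13 of 18 lay in basal clusters. The gate placed the comparison classes differently from the clusters, since 34 of 116 MethFix and 1 of 59 RNAlater barcodes gated as marginal lay in marginal clusters, and 70 of 157 and 2 of 32 gated as intermediate lay in intermediate clusters.

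Among the other 6 classes of at least 50 nuclei in each library, Cldn11 was highest in spindle nuclei, at 332 CPM (265 to 411) in the MethFix library and 271 (201 to 357) in the RNAlater library. Bone nuclei held 97.1 (56.5 to 155) and 90.8 (49.6 to 152), marginal nuclei were at 79.0 (71.1 to 87.5) and 77.8 (69.3 to 87.0), and intermediate nuclei were at 29.7 (24.1 to 36.1) and 28.8 (22.9 to 35.8). Root nuclei held 68.0 (38.0 to 112) and 35.7 (16.3 to 67.8), a log2 ratio to marginal nuclei of -0.22 (-1.07 to 0.52) in the MethFix library and -1.12 (-2.26 to -0.18) in the RNAlater library. The intervals of root, Reissner membrane and bone nuclei overlapped in each library. Some groups outside these classes held Cldn11 at rates above spindle nuclei, which had 85 of 255876 and 50 of 184613 UMIs. An unnamed cluster marked by Tenm2 held 44 of 86136 in MethFix and 44 of 131608 in RNAlater. In RNAlater, 28 Schwann cell nuclei held 22 of 33400. An unnamed cluster marked by Stab1 held 47 of 131010 in RNAlater, but 33 of 124680 in MethFix. These groups also held basal marker UMIs, 40 in the Schwann cell cluster, 91 and 139 in Tenm2 and 63 and 41 in Stab1. The Schwann cell cluster had a median of 758.5 UMIs and a score of 5.05, with basal next at 4.31. Whether its Cldn11 came from Schwann cells was not tested.

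Free RNA in a droplet library adds UMIs to nuclei that do not express a gene, so Cldn11 was set beside the basal markers in each class. The ratio of these genes in free RNA was not measured and need not equal the ratio inside basal nuclei. A value above or below the basal ratio therefore cannot separate expression in a class from free RNA. Basal nuclei held 56.2 Cldn11 UMIs per 100 marker UMIs (53.6 to 59.0) in the MethFix library and 58.4 (55.8 to 61.2) in the RNAlater library. Reissner membrane nuclei held 56.8 (33.3 to 94.9) and 47.5 (29.1 to 75.6), which overlapped the basal ratio. Marginal nuclei held 287 (234 to 353) and 307 (244 to 389), and spindle nuclei 230 (154 to 348) and 278 (159 to 506), all above it. Intermediate nuclei held 84.7 (64.3 to 112) and 128 (91.3 to 181), also above it. Root nuclei held 22.4 (11.9 to 39.6) and 11.3 (4.96 to 22.4), and bone nuclei 23.0 (12.7 to 39.3) and 25.5 (13.1 to 46.4), all below it. The share of free RNA in these values was not tested. The ratio in the Sorcs3 and Col27a1 clusters was 99.8 (88.2 to 113) and 91.0 (81.0 to 102). The intermediate intervals overlapped those of these clusters, so the basal class gave no single ratio to set intermediate nuclei against.

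**Figure D2:**
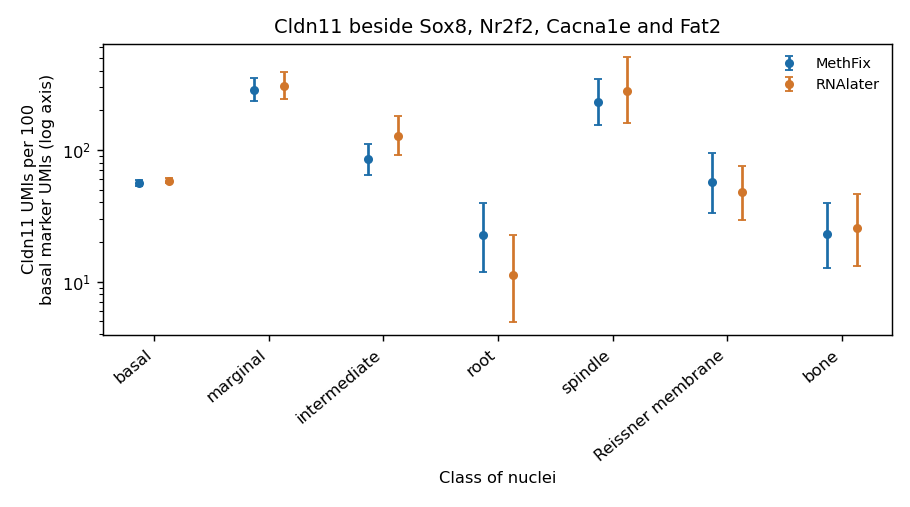
Cldn11 UMIs per 100 UMIs of Sox8, Nr2f2, Cacna1e and Fat2 (log axis) in 7 classes, with 95% intervals, in MethFix (blue) and RNAlater (orange). Marginal and spindle nuclei sat above the basal ratio of 56.2 and 58.4, and root and bone nuclei below it.

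Cldn14, a barrier-forming claudin whose loss causes deafness, was highest in root and spindle nuclei among those 7 classes. Spindle nuclei held 461 CPM (382 to 552) in the MethFix library and 374 (291 to 473) in the RNAlater library, and root nuclei 340 (267 to 426) and 357 (287 to 439). Over spindle-root nuclei together the level was 405 and 364, against 8.45 and 8.08 over the other classes, a log2 ratio of 5.58 (5.22 to 5.96) and 5.49 (5.10 to 5.90). Cldn14 and Cldn8 were called higher in spindle-root nuclei in both libraries, 2 of 6 members tested, where 3.03% of 13062 genes were called, and none was called lower, where 3.43% were. In root nuclei alone Cldn14 was called higher, where 2.93% of genes were called, and Cldn11 lower, where 3.42% were. In spindle nuclei alone Cldn14 and Cldn8 were called higher, where 2.47% were called, and none lower, where 2.74% were. The Cldn8 call there rested on 5 UMIs in MethFix and 8 in RNAlater. In MethFix, Cldn8 was at 19.5 CPM in spindle and 18.1 in root nuclei, a log2 ratio of 0.11 (-2.11 to 2.44). A Cldn14 UMI was found in 60.4% of spindle-root nuclei (52.6 to 67.8) in the MethFix library and 62.0% (52.7 to 70.7) in the RNAlater library, and the thinned shares were 32.9% of 156 nuclei and 31.0% of 116. Root nuclei fell into 2 clusters per library. The cluster led by Prss36 held 437 CPM of Cldn14 (318 to 584) in the MethFix library and 474 (354 to 622) in the RNAlater library, with Slc26a4 at 650 and 730. The cluster led by Lgr5 and Rspo2 held 255 (172 to 364) and 267 (189 to 367), with Slc26a4 at 4462 and 4399. Ceacam16, a supporting cell marker, was among the 10 leading genes of the Prss36 cluster in both libraries. Supporting cell was the next-scoring class for each root cluster, at 2.35 and 2.62 for the Prss36 cluster. For the Lgr5 and Rspo2 cluster alone, the Cldn14 interval lay below that of spindle nuclei in MethFix and overlapped it in RNAlater. The root level thus depended in part on the Prss36 cluster. Clusters are compared here as a description only.

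Cldn14 was low in the large classes. Basal nuclei held 12.8 CPM (8.46 to 18.7) and 10.5 (6.63 to 15.7), and marginal nuclei 2.35 (1.17 to 4.20) and 2.28 (1.04 to 4.33). Within the basal class, the Sorcs3 and Col27a1 clusters held 4.21 and 1.89 CPM, from 2 and 1 UMIs, against 15.3 and 13.2 in the other basal clusters. Intermediate nuclei held 4 UMIs in MethFix and 0 in RNAlater, where 0 of 522 nuclei had a UMI. By the floor of 3 counts this allows a share of nuclei with a UMI of up to 0.575%, and the exact 95% interval reaches 0.704%. Reissner membrane nuclei, with 22.7 (10.4 to 43.1) and 28.0 (15.3 to 47.0), lay between basal and root nuclei. Their log2 ratio to basal nuclei was 0.82 (-0.45 to 1.96) in MethFix, an interval that includes 0, and 1.42 (0.35 to 2.44) in RNAlater. Small groups of nuclei also held Cldn14. In 14 and 13 nuclei that were like supporting cells by their markers, in which Slc26a4 was at 0 UMIs, Cldn14 was at 632 (438 to 884) and 516 (346 to 741). An unnamed cluster of 8 nuclei in each library, led by Dytn, held 575 (297 to 1004) and 357 (163 to 677), also with Slc26a4 at 0 UMIs. Loxhd1, Tmc1 and Slc26a5 were among the 10 leading genes of that cluster in both libraries.

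Cldn9, which limits the passage of sodium and potassium and whose mutation causes deafness, was shared between marginal and spindle nuclei. Marginal nuclei held 142 CPM (131 to 153) in the MethFix library and 145 (133 to 157) in the RNAlater library, and spindle nuclei 164 (118 to 222) and 157 (105 to 226). The spindle to marginal log2 ratio was 0.21 (-0.28 to 0.66) and 0.12 (-0.48 to 0.65), so these neighbours in the order did not differ beyond counting error. Intermediate nuclei held 11.3 and 12.6, and the spindle to intermediate log2 ratio was 3.86 (3.195 to 4.54) and 3.63 (2.88 to 4.38). Cldn9 and Cldn3 were called higher in marginal nuclei in both libraries, 2 of 5 members tested, where 4.74% of 12498 genes were called. With MethFix barcodes gated singly the Cldn9 marginal ratio was 0.78 (-0.61 to 2.16), from 10 UMIs in 116 barcodes, of which 34 lay in marginal clusters. In MethFix barcodes absent from the RNAlater matrix it was 1.84 (1.14 to 2.59), below the 4-fold rule, so the Cldn9 call ended there. In marginal nuclei Cldn11 and Cldn14 were called lower, where 12.8% of genes were.

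Marginal nuclei were not uniform for Cldn9. Among the marginal clusters the level ran from 111 to 213 CPM in MethFix and from 112 to 263 in RNAlater, and Cldn9 was among the 10 leading genes of the highest cluster in each. The highest RNAlater cluster was also led by the mitochondrial genes mt-Nd4, mt-Atp6 and mt-Nd2, and their part in the Cldn9 level was not tested. A Cldn9 UMI was found in 38.9% of marginal nuclei (36.0 to 41.8) in the MethFix library and 51.1% (47.3 to 55.0) in the RNAlater library, at median depths of 4563 and 6088 UMIs, and the thinned shares were 12.3% of 1041 nuclei and 13.3% of 670. Set beside 6 marginal markers, Cldn9 reached 0.782 UMIs per 100 marker UMIs (0.723 to 0.844) and 0.775 (0.712 to 0.841) in marginal nuclei, and 12.7 (9.003 to 17.6) and 12.6 (8.26 to 18.6) in spindle nuclei. Other classes also lay above the marginal ratio, with 5.91 and 4.87 in root, 1.71 and 1.62 in Reissner membrane and 1.27 and 1.45 in basal nuclei. The ratio of Cldn9 to these markers in free RNA was not measured.

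Cldn3, a barrier-forming claudin of many epithelia, was also highest in spindle and marginal nuclei among those 7 classes. Spindle nuclei held 106 CPM (69.5 to 154) in the MethFix library and 54.2 (26.0 to 99.6) in the RNAlater library, marginal nuclei 41.4 (35.8 to 47.7) and 39.5 (33.6 to 46.2), and intermediate nuclei 3.27 and 2.46. The marginal log2 ratio to the other classes was 2.07 (1.66 to 2.49) and 2.34 (1.87 to 2.83). In MethFix barcodes absent from the RNAlater matrix it was 0.45 (-0.58 to 1.48), which ended the call. In RNAlater barcodes gated singly it was -1.86 (-7.48 to 1.48) from 1 and 4 UMIs, but 1 of the 59 barcodes gated as marginal lay in a marginal cluster. The spindle to marginal log2 ratio was 1.35 (0.71 to 1.94) and 0.45 (-0.63 to 1.37). Cldn3 and Cldn9 UMIs were found together in 90 of 1091 marginal nuclei in MethFix and 75 of 671 in RNAlater. Of this pair, Cldn3 alone was found in 79 and 60, and Cldn9 alone in 334 and 268. Whether the 2 genes met in a nucleus more often than their single shares and depth would give was not tested.

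**Figure D3:**
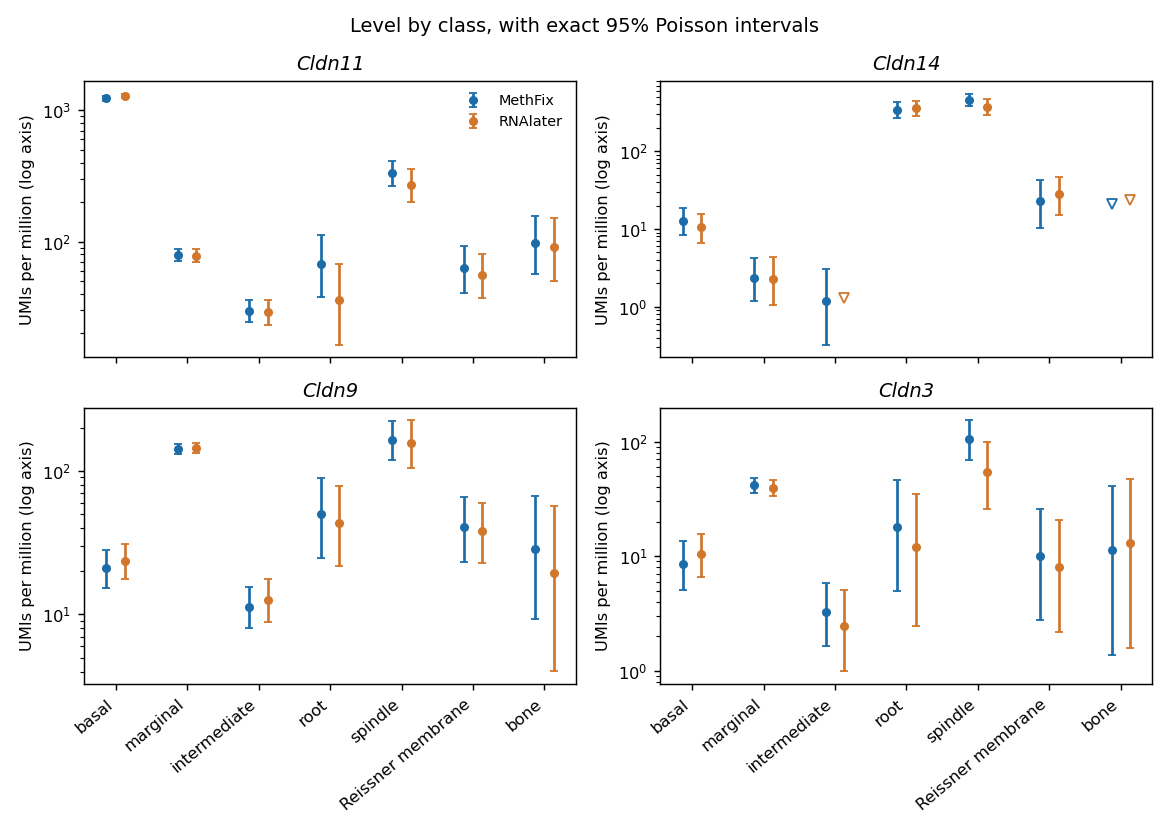
CPM (log axis) of Cldn11, Cldn14, Cldn9 and Cldn3 in 7 classes with exact 95% Poisson intervals, in MethFix (blue) and RNAlater (orange), with open triangles at the upper limit where no UMI was counted. Basal nuclei were highest for Cldn11, root and spindle nuclei for Cldn14, and marginal and spindle nuclei for Cldn9.

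Root and spindle nuclei, which shared Cldn14, differed in other claudins. The root to spindle log2 ratios of Cldn11 were -2.29 (-3.19 to -1.49) for MethFix and -2.92 (-4.13 to -1.88) for RNAlater. It was the member called in that direction, of 3 tested, where 5.38% of 2638 genes were called, and none was called higher, where 5.99% were. Cldn9 differed by -1.72 (-2.83 to -0.74) and -1.85 (-2.997 to -0.80), and Cldn3 by -2.54 (-4.52 to -1.02) and -2.19 (-4.68 to -0.23), with 4 and 3 Cldn3 UMIs in root nuclei. Cldn14 differed by -0.44 (-0.88 to -0.01) in the MethFix library and -0.07 (-0.53 to 0.41) in the RNAlater library, an interval that includes 0. In the MethFix barcodes found in both matrices it was -0.29 (-0.78 to 0.20), which also includes 0. Cldn14 made up 63.6% and 69.8% of the claudin UMIs of root nuclei and 34.8% and 33.7% of those of spindle nuclei. UMIs were not scaled to transcript length, so these shares compare classes and not genes.

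**Figure D4:**
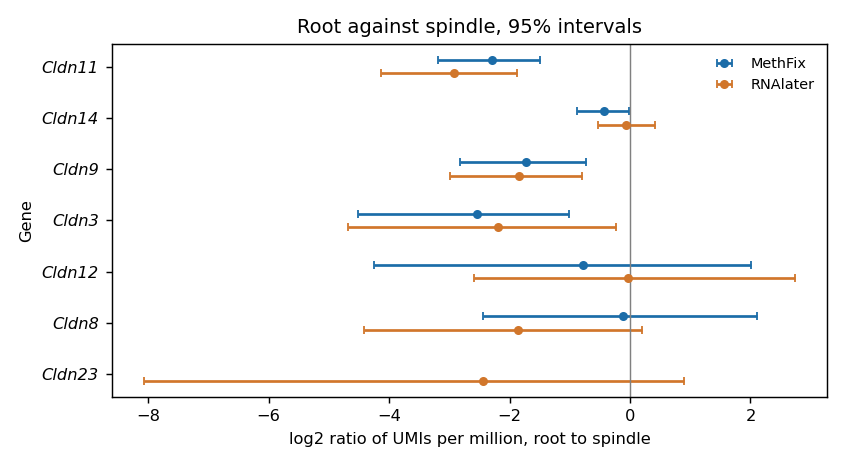
The log2 ratio of CPM in root to spindle nuclei, with 95% intervals, for each claudin that could be compared, in MethFix (blue) and RNAlater (orange), where values below 0 are higher in spindle nuclei. Cldn11, Cldn9 and Cldn3 lay below 0 in both libraries.

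The remaining members were sparse. Cldn12 had 198 UMIs in MethFix and 201 in RNAlater, with 21.3 and 25.3 CPM in marginal, 16.3 and 19.0 in intermediate and 9.51 and 14.5 in basal nuclei. Its intermediate to other classes log2 ratio was -0.03 (-0.51 to 0.44) and -0.04 (-0.52 to 0.42). Cldn8, a barrier claudin of the distal kidney tubule, had 37 and 33 UMIs. Of these, 9 and 11 lay in spindle-root nuclei, at 18.9 CPM (8.63 to 35.8) and 25.2 (12.6 to 45.1). Reissner membrane nuclei held 10.1 (2.75 to 25.9) and 12.0 (4.41 to 26.1), which overlapped those intervals. Marginal nuclei held 18 and 13 of the UMIs, at 3.84 and 3.29 CPM. Cldn10, which forms paracellular ion channels, had 19 UMIs in each library. Of these 11 and 10 lay in marginal nuclei, at 2.35 and 2.53 CPM. In root and spindle nuclei 0 were counted, but the spindle-root upper limits of 7.74 and 8.45 CPM lay above the marginal level. Absence from root and spindle nuclei was thus not shown. The unnamed Stab1 cluster held 24.1 and 15.3 CPM, from 3 and 2 UMIs. Cldn23 had 3 and 7 UMIs, of which 3 and 5 lay in spindle-root nuclei, too few to order the classes.

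Intermediate nuclei were low for most members. Cldn11, Cldn14, Cldn9, Cldn8 and Cldn3 were called lower there in both libraries, 5 of 6 members tested, where 12.6% of 12648 genes were called, and none was called higher, where 3.53% were. Cldn14 and Cldn8 had 4 and 3 UMIs there in MethFix and 0 in RNAlater, so for them the RNAlater ratio was a bound. The median log2 ratio over the 6 members was -3.18, against -0.17 over all genes tested. The member outside that call was Cldn12. In each call of a lower level, here and in other classes, the comparison nuclei held the class where that member was highest. A lower call thus partly restates that the gene was high elsewhere. The members were also chosen with earlier results known, so 5 of 6 beside 12.6% is a description only. In Reissner membrane nuclei Cldn11 was called lower, where 4.75% of genes were, and no member higher, where 2.8% were. In bone nuclei no member was called in either direction, where 3.99% of genes were called higher and 2.71% lower.

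Among claudins outside the 8, Cldn7 and Cldn4 reached 20 UMIs in a named class. In spindle nuclei Cldn7 held 78.2 CPM (47.7 to 121) and 97.5 (57.8 to 154), and 34.8 and 28.1 in marginal nuclei. Cldn4 held 62.5 (35.7 to 102) and 43.3 (18.7 to 85.4) in spindle nuclei. At least 2 of the 8 claudins had a UMI in 55 of 97 spindle nuclei in MethFix and 35 of 52 in RNAlater. Of 27 claudins outside the 8, 11 had no UMI in either library.

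Claudins act with scaffolds and other junction proteins, and 20 such partner genes were examined, of which 19 could be tested in each of these classes. In basal nuclei, Tjp1, which encodes the scaffold ZO-1, and Jam3, a junctional adhesion molecule, were called higher, where 4.6% of genes were, at log2 ratios of 2.48 (2.37 to 2.60) and 3.99 (3.66 to 4.32) in MethFix and 2.49 (2.37 to 2.61) and 4.32 (3.96 to 4.70) in RNAlater. In the same nuclei 8 partners were called lower, among them F11r, Cgn, Lsr, Marveld2 and Crb3, where 8.66% of genes were called. The comparison nuclei included marginal nuclei, in which F11r, Lsr, Marveld2 and Crb3 were called higher. The lower calls of those genes thus partly restate the marginal calls, and the count is a description only. In marginal nuclei F11r, Lsr, Marveld2 (tricellulin) and Crb3, a polarity protein, were called higher, where 4.74% of genes were, with log2 ratios from 2.07 for Lsr to 3.36 for Crb3 in MethFix and from 2.05 for F11r to 3.67 for Crb3 in RNAlater. Ocln, which encodes occludin, was at 192 and 182 CPM in basal and 288 and 322 in marginal nuclei, and 4.75 and 5.62 in intermediate nuclei. In spindle-root nuclei Tjp3, another scaffold, was called higher, where 3.03% of genes were, at 2.16 (1.55 to 2.73) and 2.34 (1.73 to 2.90).

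The genes whose levels over 7 classes were most like those of Cldn11 were Gm4149, Plekha2, Rps24, Htatsf1 and Mapre1, with Pearson r from 0.966 to 0.989 across 7357 genes compared. Those most like Cldn14 were Rnh1, Tmco3, Cobl, Cdc123 and Slc26a4, with r from 0.962 to 0.972, and Slc26a4 had been used to name the class. Cobl was at 861 and 842 CPM in root and 711 and 769 in spindle nuclei, against 55.6 and 55.9 in basal nuclei. Pearson r takes no account of the size of a difference, and most of these genes differed far less between classes. Cdc123 was at 90.6 and 83.4 CPM in root and 71.3 and 67.7 in basal nuclei. Rps24 was at 71.3 and 88.6 in basal and 32.1 and 26.3 in intermediate nuclei. These are descriptions over 7 points that share libraries and depth.

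Because the libraries shared barcodes, the class ratios were repeated in MethFix on the 964 kept barcodes absent from the RNAlater matrix. In those barcodes the Cldn11 basal ratio was 3.72 (3.39 to 4.06), and the Cldn14 spindle-root ratio 6.503 (5.57 to 7.55) from 47 UMIs in 43 nuclei. Of these nuclei 39 were spindle and 4 were root. Root nuclei were thus hardly covered, and no root to spindle ratio was computed there. The Cldn9 marginal ratio was 1.84 (1.14 to 2.59), and the Cldn3 marginal ratio was 0.45 (-0.58 to 1.48), an interval that includes 0, from 18 UMIs in 321 marginal nuclei. In barcodes found in both matrices the MethFix ratios were 4.23, 5.38, 2.67 and 2.40 for Cldn11, Cldn14, Cldn9 and Cldn3. RNAlater had 35 kept barcodes of its own, too few for the same comparison.

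**Figure D5:**
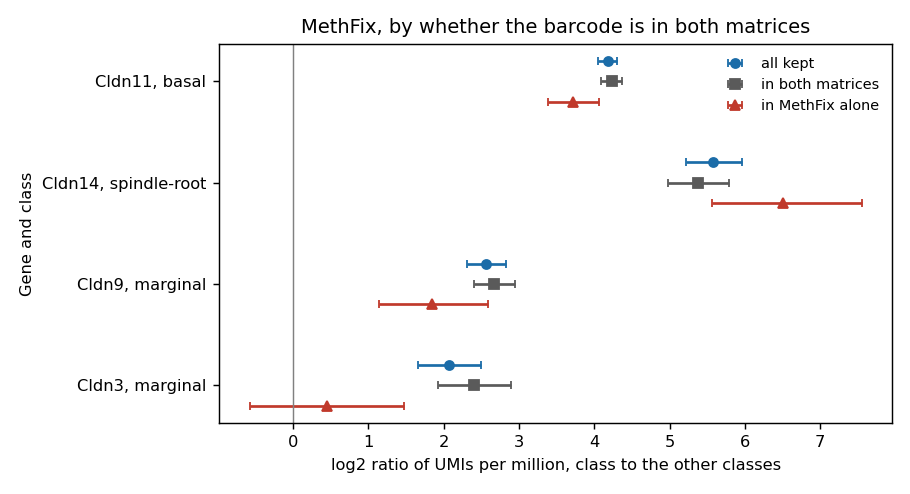
The log2 ratio of CPM between a class and the other classes in MethFix, with 95% intervals, for all kept barcodes, those in both matrices and those in MethFix alone. The ratio of Cldn3 in MethFix-alone barcodes spanned 0, while those of Cldn11, Cldn14 and Cldn9 stayed above it.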

How the data were processed

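Nuclei from pooled mouse stria vascularis were profiled with droplet single-nucleus RNA sequencing, with 1 library per method. The authors deposited filtered matrices of raw UMI counts per gene and barcode; their processing notes name Cell Ranger 3.0.1 and Scanpy 1.4.5, and the methods name build GRCm38. Total UMI counts were 21027671 in MethFix and 17681824 in RNAlater.

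The counts were analysed with Python 3.11.15, scanpy 1.11.5 and scipy 1.17.1. Barcodes with at least 200 genes, at most 8000 UMIs and at most 10% mitochondrial UMIs were kept, and Scrublet (expected rate 0.1) removed 225 (6.26%) and 19 (0.816%) doublets. Nuclei were clustered (leidenalg 0.10.2, 4000 variable genes without claudins, 30 components, 10 neighbours) at resolution 1 in MethFix and 1.5 in RNAlater. A cluster was named where its marker score was at least 3, exceeded the next class by 0.6 and rested on at least 3 markers with 3 UMIs; spindle-root clusters also needed 500 CPM of Slc26a4. The naming rule was set after the clusters were seen, and 219 (6.497%) and 125 (5.41%) nuclei stayed unnamed.

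Levels are summed UMIs per 1000000 UMIs (CPM) with exact Poisson intervals, shares have exact binomial intervals, and ratios between classes have exact conditional intervals, at 95%. The lower limit was 3 counts. Shares thinned to 1000 UMIs are exact expectations over nuclei with at least 1000 UMIs. A gene with at least 20 UMIs was called where it differed by at least 4-fold in both libraries, and a class at or under 3 counts was not called higher. Genes were named as members, as junction partners or as the 5 with the most similar pattern. The members and lists were chosen with earlier results of these data known. The ratios were checked on simulated data. TMM factors of edgeR 4.0.16 and size factors of DESeq2 1.42.0 (R 4.3.3) were alternatives. Deposited counts do not separate animals, so no test between samples was made. Positions came from GENCODE M21 and promoters from RefSeq, both on GRCm38.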

Additional observations from a re-analysis of the deposited data

How the results depend on the processing

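No paired analysis was possible because each method gave 1 library. Under the main set of alternatives, 178 values were scored as the same as the main result, 20 as moved and 1 as reversed. The 72 values outside that set were all scored as the same. Most were root to spindle ratios repeated under the same alternatives, and leaving out the Sorcs3 basal clusters was chosen after seeing the data. The main intervals of the root to spindle ratios were wide, so a score of the same was a weak check there. These scores concern the distance from the main value, and a moved value could keep its direction. For example, the Cldn11 basal ratio of 3.72 in MethFix without the shared barcodes lay below its main interval but stayed above 0. The Cldn11 basal log2 ratio was 3.95 in MethFix and 3.91 in RNAlater with no mitochondrial limit, 4.04 and 4.05 with no upper limit on UMIs, and 1.80 and 0.47 with barcodes gated singly, which kept 40 and 18 barcodes as basal, 34 and 13 of them in basal clusters. Without the shared barcodes, MethFix gave 3.72 for Cldn11 and 6.503 for Cldn14, the latter from 39 spindle and 4 root nuclei. Shares thinned to 1000 UMIs were 67.5% and 67.4% for Cldn11 in basal, 32.9% and 31.0% for Cldn14 in spindle-root and 12.3% and 13.3% for Cldn9 in marginal nuclei. At 2-fold, 4 members were lower in basal nuclei, against 0 at 4-fold, and at 50 UMIs 1 member was higher in spindle-root nuclei, against 2. The shares over all genes at these settings are not given, so these counts show only how the calls depend on the rule. With a pseudocount of 1, 3 of the 5 genes most like Cldn14 were shared. The gated Cldn3 marginal ratio in RNAlater was -1.86, from 1 and 4 UMIs, with 1 of 59 gated barcodes in a marginal cluster. Cldn23 in MethFix had 3 UMIs against 0, so no ratio was computed. The gate left 2 spindle-root nuclei in each library, so Cldn14 had no value there, and RNAlater without shared barcodes had 35 nuclei, too few for a value. Apart from the construction of these alternatives, the cause was not tested. With 1 library per method, spread between animals could not be measured, and genes at a few UMIs could not be ordered by class.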
